A study of Rattus norvegicus with 21 samples.

Results

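The genes of the Wnt signaling pathway were examined in the anterior pituitary of male ACI, COP and BN rats after long treatment with diethylstilbestrol (DES), a synthetic estrogen. Members were chosen by name: probe sets with a single platform gene symbol for a Wnt ligand, a Frizzled receptor (Fzd), a secreted antagonist (Sfrp, Dkk, Frzb, Wif1), an R-spondin or its receptor, Lrp5 or Lrp6, Znrf3, or the intracellular genes Dvl, Axin, Apc, Ctnnb1, Nkd, Tcf7 and its relatives, and Lef1. This gave 79 of the 31042 probe sets on the array, for 48 of the 14217 genes named by a probe set with a single symbol. Genes that the naming rule covers but that no such probe set represented, among them Rnf43, Dkk1, Ror1 and Ror2, were not analysed here.

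Each group comprised male rats of 1 inbred strain aged 9 weeks when an implant was placed between the shoulder blades, and death at 21 weeks ended 12 weeks of treatment. Control rats carried an empty implant, and DES-treated rats an implant with 5 mg DES. All rats, controls included, also received 50 mg/kg of the DNA label BrdU 4 hours before death. ACI and BN rats came from one supplier and COP rats from another, so that strain and source cannot be told apart between COP and the other strains. RNA of the whole anterior pituitary was hybridised to Affymetrix Rat Genome 230 2.0 arrays, with 3 control and 4 DES arrays in each of the 3 strains (21 arrays in 6 groups). The labels differ on independence: the design text calls every array a biological replicate, whereas the sample notes give 2 independent replicates for 3 control males and 3 for 4 DES males. The p-values below treat each array as 1 rat.

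Wnt proteins are secreted ligands that bind Frizzled receptors. In the canonical branch a Frizzled receptor and the co-receptor Lrp5 or Lrp6 act through Dishevelled (Dvl) to stop the destruction complex of Axin, Apc and kinases from degrading beta-catenin (Ctnnb1), which then works with Tcf7-family factors and Lef1 to switch on target genes. Secreted antagonists bind the ligands or the co-receptors, Znrf3 removes Frizzled receptors from the cell surface, and R-spondins with Lgr receptors hold Znrf3 back. Axin2 is a widely used readout of the canonical branch because it is itself a target. In the pituitary, Wnt signals are known for their part in development of the gland and its stem cell compartment, and Wnt4 is a known estrogen-responsive gene there.

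The start regions of the 3 genes on which the results turn most were as follows, Wnt4 and Wnt10a being the members that rose in every strain and Axin2 the readout of the pathway. RefSeq promoter windows of the rat build GRCr8, from 250 bases before to 50 after the annotated start, were on hand for 35 of the 48 genes. The Wnt4 window lies at chr5:154797200-154797499, the Wnt10a window at chr9:83798344-83798643 and the Axin2 window at chr10:94398535-94398834, all on the + strand. Capitals mark the TCF/LEF motif CTTTGAT, the site that Tcf7-family factors and Lef1 are known to bind.
Wnt4: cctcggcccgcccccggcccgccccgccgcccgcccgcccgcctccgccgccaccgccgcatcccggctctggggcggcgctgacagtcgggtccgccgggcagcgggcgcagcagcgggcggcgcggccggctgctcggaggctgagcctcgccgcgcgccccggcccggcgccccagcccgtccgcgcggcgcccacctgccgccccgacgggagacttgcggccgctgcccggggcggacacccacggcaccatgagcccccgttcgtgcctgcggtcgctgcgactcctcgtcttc
Wnt10a: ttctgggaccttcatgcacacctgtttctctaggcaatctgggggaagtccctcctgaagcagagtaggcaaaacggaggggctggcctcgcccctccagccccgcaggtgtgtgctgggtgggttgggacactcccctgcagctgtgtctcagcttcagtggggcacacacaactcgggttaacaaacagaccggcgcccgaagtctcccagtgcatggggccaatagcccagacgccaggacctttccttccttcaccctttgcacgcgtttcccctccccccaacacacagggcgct
Axin2: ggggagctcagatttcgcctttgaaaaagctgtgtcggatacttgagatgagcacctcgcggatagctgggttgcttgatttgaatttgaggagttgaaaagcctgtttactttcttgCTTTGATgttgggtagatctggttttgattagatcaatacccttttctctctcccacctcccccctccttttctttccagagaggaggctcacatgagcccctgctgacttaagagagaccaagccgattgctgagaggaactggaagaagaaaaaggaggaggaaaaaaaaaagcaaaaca

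In the Axin2 window CTTTGAT stood at -132 to -126 from the start. The motif, searched on both strands, was in 3 of the 35 member windows (8.57%; Axin2, Nkd1 and Tcf7) and in 3.63% of the 33469 windows of that length in the table. The full estrogen response element (GGTCA, any 3 bases, then TGACC), the palindrome that estrogen receptors bind, was in 0 of the 35 member windows and in 9 of all 33469 (0.0269%). Its half-site GGTCA, which is part of the full element, was in 12 of 35 member windows (34.3%) against 40.5% of all windows, and neither the Wnt4 nor the Wnt10a window held one. A match is a description of letters and not a binding site, and no match says only that these letters are not in the window.

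Signals were the linear array units deposited by the authors, scaled so that the trimmed mean of every array was 500.1 to 500.2. The median of an array was 118.8 to 151.4 and its 40th percentile 67 to 90.6. A probe set was tested when its signal exceeded the 40th percentile of its array on at least 3 arrays, and differences are given on the log2(signal + 16) scale, which understates changes of dim genes. Of the 79 member probe sets 43 passed, standing for 36 genes. The other 36 probe sets had no array signal above 127.3, and 12 genes (Dkk2, Dvl2, Fzd5, Lgr5, Nkd2, Rspo1, Wif1, Wnt11, Wnt16, Wnt2, Wnt5b and Wnt8b) had no tested probe set. Where several probe sets of a gene passed, the brightest over all arrays stands for the gene below. Signals of different probe sets cannot be set against each other, so levels are compared only within a gene.

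Of the 36 tested genes, 3 were higher and 14 lower after DES in ACI rats (limma with Benjamini-Hochberg adjustment, adjusted p under 0.05), 3 higher and 12 lower in COP, and 4 higher and 11 lower in BN. Over all 21858 probe sets tested, 19.8% were called higher and 29.3% lower in ACI, with 17.9% higher and 25.2% lower in COP, and 14% higher and 19.4% lower in BN. The share of Wnt genes called higher (8.3%, 8.3% and 11.1%) was below that background in each strain and the share called lower (38.9%, 33.3% and 30.6%) above it, by a few genes in each case. The median log2 change of the 36 genes (ACI, COP and BN in turn) was -0.48, -0.24 and -0.14, beside -0.13, -0.09 and -0.06 over all probe sets tested. In ACI the control and DES arrays did not overlap for 17 of the 36 genes, in COP for 15 and in BN for 19, where 54.0%, 48.3% and 36.8% of all tested probe sets did not overlap. Centring each array on its median raised all changes, to a median over all probe sets of 0.08, 0.02 and 0.02, and moved the share of all called probe sets that were higher from 40.4% to 57.4% in ACI, with 41.6% becoming 51.4% in COP, and 42% becoming 51.8% in BN. With it the Wnt genes were 3 higher and 12 lower in ACI, 5 higher and 11 lower in COP, and 4 higher and 10 lower in BN.

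Across the strains, 2 genes were higher in all 3 (Wnt4 and Wnt10a) and 1 in 2 (Dkk3). Lower in all 3 strains were 9 genes: the receptors Fzd1, Fzd6 and Fzd8, the R-spondin receptor Lgr4, the ligase Znrf3, the ligand Wnt9a, and the intracellular genes Axin2, Apc and Tcf7l2. Axin1 was lower in ACI and COP and Lef1 in ACI and BN, 6 further genes were lower and 2 higher in a single strain, and 14 were called in none.

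The largest changes were in the ligand Wnt4, a Wnt needed for development of the gonads and other organs. In ACI rats its signal was 125, 119 and 128 on the control arrays and 1696, 1093, 1906 and 1319 on the DES arrays. COP controls gave 166, 118 and 197, and COP rats on DES 1771, 1958, 2213 and 2047. BN controls gave 95, 85.3 and 140, and BN rats on DES 1780, 1858, 1555 and 1790. Every DES array was above every control array of its strain by a wide margin, and the DES levels of the strains lay close together. Mean signal rose from 124 ± 4.33 (SD, n = 3) to 1504 ± 366 (n = 4) in ACI, a 12.1-fold rise, with 12.4-fold in COP and 16.3-fold in BN. On the log2 scale the changes were 3.41 ± 0.18 (SE), 3.53 ± 0.18 and 3.86 ± 0.18, with adjusted p = 1.01e-12, 1.02e-12 and 5.24e-13 (limma). The exact two-sided permutation test gave p = 0.0286 in each strain, the smallest that 3 against 4 arrays allow over 35 splits. No strain difference in the Wnt4 response or in its treated level was called.

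Wnt10a, a ligand best known from teeth, hair and skin, was the other gene that rose in every strain. Its ACI signals were 326, 285 and 346 in controls and 2125, 2480, 2240 and 2445 after DES. In COP they were 322, 309 and 270 against 2261, 2352, 2059 and 1995. In BN they were 224, 315 and 211 against 1084, 1092, 1013 and 1409. Controls of the 3 strains overlapped, whereas every DES-treated BN array lay below every DES-treated ACI and COP array. The rise was 7.28-fold in ACI, 7.22-fold in COP and 4.6-fold in BN, or 2.80, 2.79 and 2.14 ± 0.14 on the log2 scale (adjusted p = 2.49e-13, 4.55e-13 and 7.24e-11; limma). Between treated rats, ACI exceeded BN by 1.01 (adjusted p = 1.96e-06) and COP exceeded BN by 0.91 (adjusted p = 1.54e-05). The response itself was 0.66 larger in ACI than in BN (95% interval 0.27 to 1.06, adjusted p = 0.0225), a call that was lost without ACI control 2 (0.59, adjusted p = 0.0652) or without BN control 2 (0.50, adjusted p = 0.086), and was 0.29 (adjusted p = 0.585) on the arrays numbered 3 and 4 alone. Against COP the BN response was smaller by a like amount that missed the threshold (COP minus BN 0.65, adjusted p = 0.052).

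Dkk3, a secreted member of the Dickkopf family that, unlike its relatives, is not a clear antagonist of Wnt co-receptors, rose in ACI and BN, and its call in COP turned on the processing. ACI signals were 155, 149 and 137 in controls and 580, 861, 684 and 738 after DES, and BN signals were 166, 148 and 356 against 687, 689, 506 and 651. In COP the control signals of 142, 148 and 288 overlapped the DES signals of 398, 256, 296 and 197. BN control 3 and COP control 3 were the high ones of their groups. The log2 change was 2.15 ± 0.26 (SE) in ACI (adjusted p = 5.19e-07), 1.53 ± 0.26 in BN (adjusted p = 0.000102) and 0.56 ± 0.26 in COP (adjusted p = 0.0901). Without COP control 3 the COP value was 0.87 and called (adjusted p = 0.0149), without COP DES 4 it was 0.72 (adjusted p = 0.0396), and without BN control 3 it was 0.56 and called (adjusted p = 0.046). It was also called under median centring (0.67, adjusted p = 0.0437), under quantile normalization (0.72, adjusted p = 0.0288) and on the arrays numbered 1 and 2 alone (1.06, adjusted p = 0.000656), and those numbered 3 and 4 alone gave -0.24 (adjusted p = 0.579). On those last arrays the BN rise was 0.67 and not called (adjusted p = 0.112). Among treated rats Dkk3 was higher in ACI than in COP by 1.30 (adjusted p = 0.00177) and lower in COP than in BN by 1.13 on the log2 scale (adjusted p = 0.00168), while the difference in response between ACI and COP was 1.59 with an adjusted p of 0.0545. A second, dimmer Dkk3 probe set (1397754_at) was called only in BN (1.54, adjusted p = 0.0158), with 0.34 in ACI and 0.55 in COP.

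**Figure D1:**
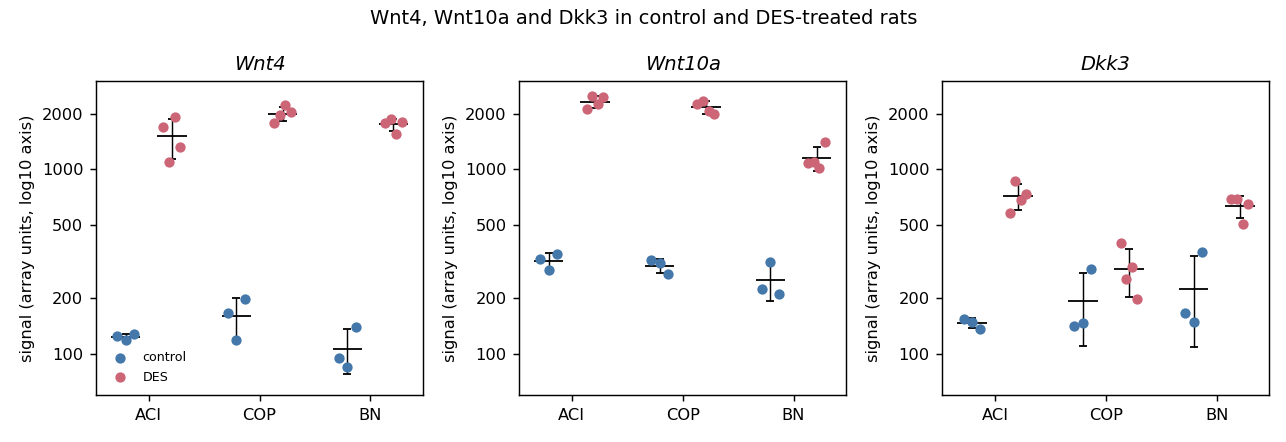
Array signal (array units, log10 axis) of Wnt4, Wnt10a and Dkk3 on each array, with 3 control arrays (blue) and 4 DES arrays (red) per strain; lines are group means and bars 1 SD. Wnt4 rose from at most 197 to at least 1093 in every strain, BN DES arrays lay lowest for Wnt10a (1013 to 1409), and only for Dkk3 in COP did control and DES arrays overlap.

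The remaining ligands changed little or were dim. Wnt9a fell in all strains, by 0.74 in ACI (adjusted p = 0.0125), 0.80 in COP (adjusted p = 0.00925) and 0.82 in BN (adjusted p = 0.0103) on the log2 scale, with control signals of 151 to 268 and DES signals of 72.3 to 154 over the strains, overlapping only in COP. Each of these calls was lost without 1 array: ACI control 3 (-0.58, adjusted p = 0.0819), COP control 2 (-0.69, adjusted p = 0.0527) and BN control 3 (-0.67, adjusted p = 0.0685). Under median centring the ACI value was -0.53 (adjusted p = 0.0838). Wnt1 was called higher only in BN (0.80, adjusted p = 0.00605; 0.58 with adjusted p = 0.0616 without BN control 2), and Wnt2b, on signals of 83.1 to 230 over all arrays, only in COP (0.67, adjusted p = 0.0391; 0.48 with adjusted p = 0.198 without COP control 2). Wnt5a, Wnt6 and Wnt7a were called in no strain, and their signals ranged from 6.0 to 129.

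Of the 3 tested genes that control the number of receptors at the cell surface, Znrf3 and Lgr4 fell in every strain and Rspo3 was called in none. Znrf3, the ligase that clears Frizzled receptors and is itself a known target of the pathway, had ACI signals of 419, 323 and 284 in controls and 72.2, 97.5, 79.2 and 76.0 after DES. COP signals were 344, 365 and 339 against 126, 133, 141 and 71.0, and BN signals 534, 456 and 532 against 260, 201, 245 and 148. No DES array reached a control array of its strain, and the treated ACI arrays lay below all treated BN arrays. The fall was 4.21-fold in ACI, 2.97-fold in COP and 2.38-fold in BN, or -1.87, -1.49 and -1.21 ± 0.21 (SE) on the log2 scale (adjusted p = 1.37e-07, 5.06e-06 and 0.000102). Between treated rats Znrf3 was lower in ACI than in BN by 1.22 (adjusted p = 4.26e-05) and lower in COP than in BN by 0.79 (adjusted p = 0.00488), and the ACI response minus that of BN was -0.66 with an adjusted p of 0.155. Lgr4, the receptor for R-spondins, had ACI signals of 296, 278 and 226 in controls and 132, 98.1, 146 and 117 after DES. COP signals were 426, 309 and 346 against 182, 189, 102 and 100.1, and BN signals 431, 392 and 226 against 178, 166, 145 and 125. Groups did not overlap in any strain, BN control 3 being the low one of its group. Lgr4 fell by 1.03 in ACI (adjusted p = 0.000997), 1.28 in COP (adjusted p = 0.000136) and 1.07 in BN (adjusted p = 0.00124) on the log2 scale. Rspo3, the one R-spondin tested, was dim, with changes of 0.16 in ACI (adjusted p = 0.724), -0.28 in COP (adjusted p = 0.541) and 0.59 in BN (adjusted p = 0.199).

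**Figure D2:**
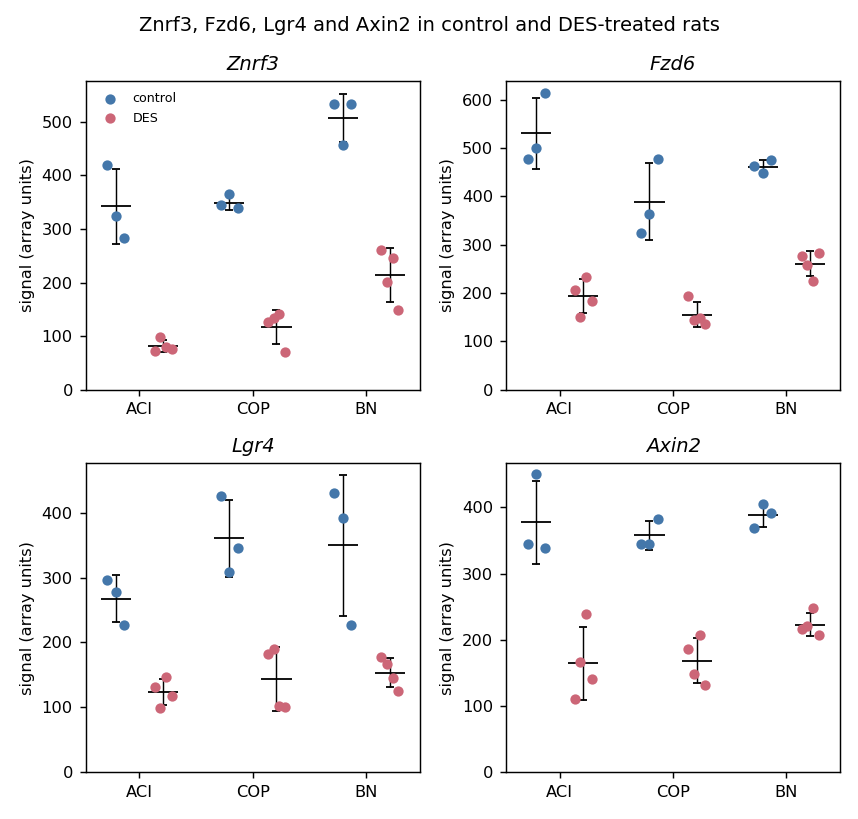
Array signal (array units, linear axis from 0) of Znrf3, Fzd6, Lgr4 and Axin2 on each array, with 3 control arrays (blue) and 4 DES arrays (red) per strain; lines are group means and bars 1 SD. All DES arrays lay below all control arrays of their strain for these 4 genes, with the lowest Znrf3 signals (71.0 to 141) in treated ACI and COP rats.

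Of the 6 tested Frizzled receptors, 5 fell in ACI and 3 each in COP and BN, and none rose. Over all tested probe sets 29.3% were called lower in ACI, 25.2% in COP and 19.4% in BN. Fzd6 had ACI signals of 478, 499 and 614 in controls and 206, 151, 234 and 184 after DES. In COP the signals were 324, 363 and 478 against 193, 143, 149 and 137, and in BN 462, 447 and 475 against 276, 258, 225 and 283. Control and DES arrays were apart in each strain. The change in ACI was -1.39, that in COP -1.23 and that in BN -0.79 (SE 0.17; adjusted p = 3.84e-07, 2.98e-06 and 0.000803). Among treated rats Fzd6 was lower in COP than in BN by 0.70 (adjusted p = 0.00214), and ACI minus BN was -0.41, a call at adjusted p = 0.0464 that was lost without any 1 of 13 arrays (adjusted p up to 0.162) and under both other scalings. Fzd1, just under the mean absolute change of 1 set for giving every array, fell by 1.02 in ACI (adjusted p = 0.000786), 0.92 in COP (adjusted p = 0.00231) and 1.04 in BN (adjusted p = 0.00122). Fzd3 was called in no strain (-0.53 in ACI, adjusted p = 0.0568).

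Fzd8 fell in every strain and also differed between untreated strains. ACI signals were 305, 276 and 370 in controls and 189, 177, 185 and 164 after DES. COP signals were 296, 335 and 319 against 174, 140, 267 and 213, and BN signals 490, 559 and 505 against 295, 213, 321 and 231. BN control arrays were above all ACI and COP control arrays, and DES arrays were below the controls of their strain throughout. On the log2 scale Fzd8 fell by 0.77, 0.67 and 0.94 in ACI, COP and BN (adjusted p = 0.00121, 0.00469 and 0.000322). In controls ACI was lower than BN by 0.69 (adjusted p = 0.0317) and COP lower than BN by 0.68 (adjusted p = 0.0378), and both calls rested on narrow margins: the first was lost without any 1 of 5 control arrays (all but ACI control 3) and the second without any 1 of the 6, with adjusted p up to 0.148 and 0.135.

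Fzd4, the receptor known for its role in blood vessels of the retina, had the larger of the 2 differences in response between strains that were called. ACI signals were 215, 251 and 137 in controls and 43.3, 49.6, 40.1 and 64.7 after DES. In COP they were 187, 137 and 130 against 124, 103, 82.6 and 112, and in BN 101, 66.2 and 70.0 against 84.5, 48.9, 80.6 and 51.1. ACI groups were far apart, COP groups just apart, and BN groups overlapped at a low level. Fzd4 fell 4.06-fold in ACI (log2 change -1.71 ± 0.25, adjusted p = 6.67e-06), with -0.46 in COP (adjusted p = 0.151) and -0.22 in BN (adjusted p = 0.541). The ACI response differed from that of BN by -1.49 (95% interval -2.22 to -0.75, adjusted p = 0.00657), and this call held when each of the 21 arrays was left out in turn, but not on the arrays numbered 3 and 4 alone (-1.09, adjusted p = 0.414). Most of the contrast lay in the controls, where ACI exceeded BN by 1.17 (adjusted p = 0.00776), a call lost without ACI control 2 (1.00, adjusted p = 0.0646). The difference in Fzd4 between treated ACI and BN rats was not called. The treated ACI signals were all below 67, the lowest 40th percentile of any array, so the size of the fall is poorly measured. Of 6 tested endothelial markers, 5 also fell in ACI (3 under median centring and 4 under quantile normalization), 2 in COP (none there under either other scaling) and none in BN, where 1 rose. Their summed signal was 4074 to 5157 in ACI controls and 2568 to 2678 after DES, and 3161 to 4205 in BN controls and 4083 to 5104 after DES, and their part in the Fzd4 result was not tested.

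Fzd2 was dim. Its ACI signals were 89.5, 98.4 and 90.4 in controls and 57.1, 6.7, 3.2 and 11.9 after DES, with COP signals of 49.4 to 155 and 37.3 to 108 and BN signals of 124 to 138 and 46.3 to 143. The ACI groups did not overlap, but the DES signals were under the level at which probe sets were tested, so the fold is not well defined. On the log2(signal + 16) scale the ACI change was -1.82 ± 0.44 (adjusted p = 0.00144), and treated ACI rats were below treated BN rats by 1.53 (adjusted p = 0.00586). On the arrays numbered 1 and 2 alone that difference from BN was -0.63 and not called in limma (adjusted p = 0.383). The difference from treated COP rats, -1.40 with an adjusted p of 0.0488, was lost without any 1 of 13 arrays.

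**Figure D3:**
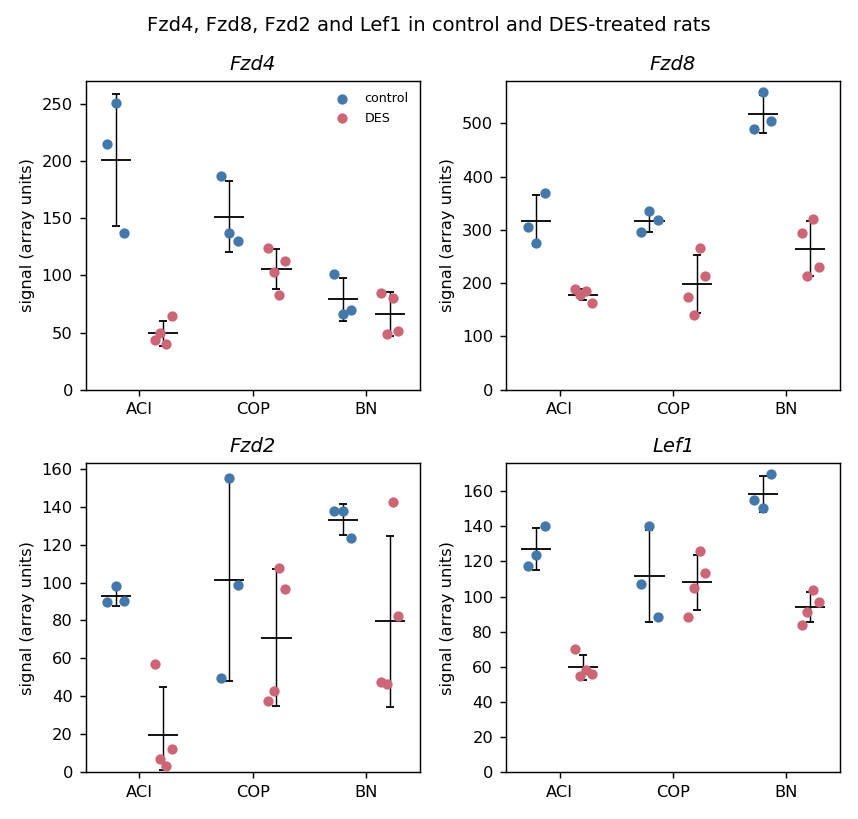
Array signal (array units, linear axis from 0) of Fzd4, Fzd8, Fzd2 and Lef1 on each array, with 3 control arrays (blue) and 4 DES arrays (red) per strain; lines are group means and bars 1 SD, the lower bar being stopped at 5% of the mean where it would pass 0. Fzd4 and Fzd2 were lowest in treated ACI rats, Fzd8 was highest in BN controls (490 to 559), and Lef1 overlapped between groups in COP.

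The co-receptors showed no change that held. Lrp6 was called lower in BN alone (-0.63, adjusted p = 0.0402), and that call was lost without any 1 of 6 arrays and under both other scalings. Lrp5 was dim and called in no strain. Of the 6 tested secreted antagonists, Dkk3 was higher as above, and Frzb was called lower in COP (-1.69, adjusted p = 0.00602). Frzb signals in COP controls were 69.5, 104 and 517, so that COP control 3 stood far above the rest, and without it the value was -0.89 (adjusted p = 0.0957). A second Frzb probe set (1373615_at) showed the same high array (330 against 57.9 and 75.3) and was called in no strain. Sfrp1, which binds Wnt ligands, had steady signals of 273 to 472 over all 21 arrays, with changes of 0.14, -0.12 and -0.16 in ACI, COP and BN and intervals within 0.5 of 0. Its dimmer probe set 1382878_at was called higher in COP (1.44, adjusted p = 0.0177), where 1 control array read 1.9. Sfrp2, Sfrp4 and Sfrp5 were dim and called in no strain.

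Axin2, the readout of the canonical branch, had ACI signals of 344, 450 and 338 in controls and 111, 166, 240 and 140 after DES. COP signals were 346, 345 and 383 against 185, 148, 207 and 132, and BN signals 369, 405 and 392 against 216, 221, 247 and 207. DES arrays were below all controls of their strain, and the 3 strains had like control levels. It fell 2.3-fold in ACI, 2.13-fold in COP and 1.74-fold in BN, or -1.16, -1.04 and -0.76 ± 0.19 on the log2 scale (adjusted p = 3.15e-05, 0.000151 and 0.00402). Apc, a scaffold of the destruction complex, fell by 1.02 in ACI (adjusted p = 3.89e-08), 0.89 in COP (adjusted p = 4.81e-07) and 0.83 in BN (adjusted p = 2.42e-06) on its brightest probe set, from 1711 to 2307 in controls to 891 to 1329 after DES over the strains. A second Apc probe set (1387837_at) gave -0.47, -0.27 and -0.54 and was not called. Axin1, a relative of Axin2, changed less. It gave -0.47 in ACI (adjusted p = 0.00502), -0.45 in COP (adjusted p = 0.00829) and -0.12 in BN (adjusted p = 0.509). The ACI call of Axin1 was lost under median centring (-0.26, adjusted p = 0.122). Dvl1, Dvl3 and Nkd1 were called in no strain on the probe sets that stand for them, and Dvl1 probe set 1397351_s_at was called higher in ACI (0.46, adjusted p = 0.0112).

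Ctnnb1, which encodes beta-catenin, was among the brighter probe sets. Its signals were 9271, 11945 and 20304 in ACI controls and 10530, 11258, 14359 and 15113 after DES. COP signals were 11781, 11873 and 15477 against 12280, 12097, 15722 and 14080, and BN signals 12457, 12113 and 20251 against 12112, 12913, 19118 and 15168. Groups overlapped in every strain. The changes were -0.05 in ACI (95% interval -0.51 to 0.41), 0.06 in COP (-0.40 to 0.52) and 0.01 in BN (-0.45 to 0.47), with adjusted p = 0.874, 0.858 and 0.984. In all 3 strains the signals on control 3, DES 3 and DES 4 were higher than on arrays 1 and 2 of the same group. Arrays 3 and 4 alone gave a called fall of 0.46 in ACI (adjusted p = 0.0356), and quantile normalization gave called falls of 0.51, 0.44 and 0.59 (adjusted p = 0.0178, 0.0432 and 0.00985). A dimmer probe set, 1369733_at, was lower in ACI (-0.59, adjusted p = 0.0397) and also in COP (-0.71, adjusted p = 0.0161) and gave -0.37 in BN, while 1373470_at was called in no strain. The 3 probe sets of this gene therefore do not give a common answer.

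The transcription factors that partner beta-catenin fell or did not change. Tcf7l2 fell by 1.14 in ACI (adjusted p = 5.7e-06), 0.81 in COP (adjusted p = 0.000378) and 0.81 in BN (adjusted p = 0.000638). Tcf7l1, a mainly repressive member of the family, fell in ACI (-1.44, adjusted p = 0.000234), with -0.32 in COP and -0.44 in BN. Lef1 had ACI signals of 117, 124 and 140 in controls and 69.9, 54.5, 58.3 and 55.8 after DES, and BN signals of 155, 150 and 170 against 84.0, 91.2, 104 and 97.1. COP signals of 107, 140 and 88.2 overlapped the 88.2, 105, 126 and 113 after DES. Lef1 fell by 0.92 in ACI (adjusted p = 0.000412) and by 0.67 in BN (adjusted p = 0.0105), and gave -0.03 in COP (95% interval -0.43 to 0.37). The ACI and COP responses differed by -0.89 with an adjusted p of 0.18. Tcf7 was called in COP only (-0.88, adjusted p = 0.0326), and the call was lost without any 1 of 4 COP arrays and under median centring.

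**Figure D4:**
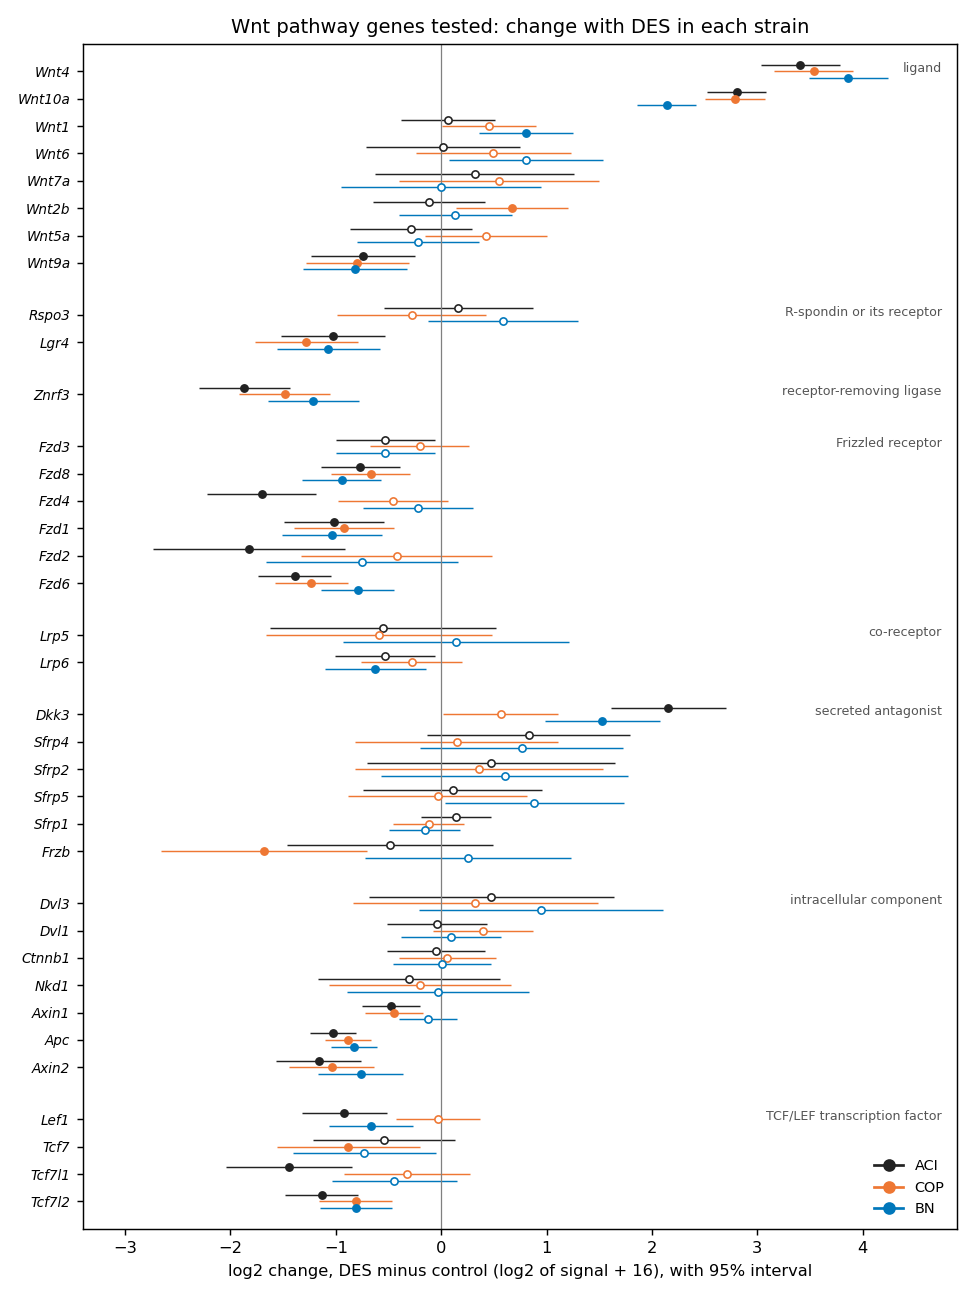
Log2 change with DES (signal + 16, DES minus control) of the 36 tested genes in each strain, grouped by role; points are limma estimates, bars 95% intervals, and filled points were called at an adjusted p under 0.05. Wnt4 and Wnt10a lie on the right at 2.14 to 3.86 in every strain, and Dkk3 reaches 2.15 in ACI. Most Frizzled, Znrf3, Lgr4 and Tcf7l2 intervals lie left of 0.

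Between strains, few members differed in control rats: 2 of 36 between ACI and BN (Fzd4 higher and Fzd8 lower in ACI), 1 between COP and BN (Fzd8) and 0 between ACI and COP, where limma gave 1 gene at an unadjusted p under 0.05. The background shares over all tested probe sets were 6.77%, 5.69% and 1.2%. After DES, 10 genes differed between ACI and BN, 9 of them lower in ACI, 6 between ACI and COP and 6 between COP and BN, where 31.3%, 4.68% and 22.2% of all probe sets were called. Under median centring the member probe sets called between treated ACI and BN were 3 higher and 4 lower in place of 1 and 9, and those between treated ACI and COP numbered 1 in place of 6. Besides the genes above, Apc (-0.40, adjusted p = 0.00319), Tcf7l2 (-0.67, adjusted p = 0.00188), Tcf7l1 (-1.04, adjusted p = 0.00458), Lef1 (-0.54, adjusted p = 0.0242) and Wnt1 (-0.67, adjusted p = 0.0134) were lower in treated ACI than in treated BN rats, and Fzd8 was lower by 0.51 (adjusted p = 0.0228). The Lef1 call was lost without ACI DES 2, ACI DES 4 or BN DES 3 (adjusted p = 0.0561, 0.0523 and 0.0609), and the Fzd8 call without ACI DES 4, BN DES 1 or BN DES 3 (adjusted p = 0.059, 0.0601 and 0.0811). In limma both calls were also lost under median centring (adjusted p = 0.119 for Lef1 and 0.115 for Fzd8). Quantile normalization lost both as well (adjusted p = 0.13 and 0.0785), and Lef1 was not called with no filter (adjusted p = 0.052). Znrf3 and Fzd2 kept their calls under median centring, so Apc, Tcf7l2, Tcf7l1 and Wnt1 cannot all be among the 4 lower there. Which of those calls held was not followed gene by gene. The response to DES differed for 2 genes between ACI and BN, Fzd4 and Wnt10a, where 14.1% of all probe sets were called. It differed for 0 between ACI and COP (6 at an unadjusted p under 0.05, limma) and for 0 between COP and BN (4 at an unadjusted p under 0.05), with 0.526% and 5.22% of all probe sets called.

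Other genes of the pathway, taken from lists by function, moved in both directions. For the list counts that follow, the shares over all tested probe sets were 19.8% higher and 29.3% lower in ACI. In COP they were 17.9% and 25.2%, and in BN 14% and 19.4%. Wls, which carries Wnt proteins to the cell surface, fell by 2.04 in ACI (adjusted p = 5.28e-08), 1.18 in COP (adjusted p = 0.000109) and 0.67 in BN (adjusted p = 0.0187), and the ACI fall exceeded that of BN by 1.37 (adjusted p = 0.00351 for the difference). Porcn, the acyltransferase that Wnt proteins need for secretion, was called higher in BN alone (0.57, adjusted p = 0.0233). Under either other scaling Porcn was also called higher in ACI and in COP, and under quantile normalization Wls was not called in BN. Among 12 other receptors, co-receptors and antagonists, 2 rose and 6 fell in ACI, 2 rose and 5 fell in COP, and 3 rose and 4 fell in BN. Ryk, a Wnt receptor of the kinase-like family, rose by 2.07 in ACI (adjusted p = 6.16e-13), 1.73 in COP (adjusted p = 1.82e-11) and 1.10 in BN (adjusted p = 4.99e-08), and its response was larger in ACI than in BN by 0.97 (adjusted p = 0.000136). Ptk7, a co-receptor of the planar cell polarity branch, fell by 1.89, 1.63 and 0.63 (adjusted p = 3.02e-08, 4.21e-07 and 0.0141). Of the glypicans, cell surface proteoglycans that bind Wnts, Gpc4 rose (1.00, 0.87 and 0.43) and Gpc3 fell (-1.99, -2.21 and -1.03), both called in each strain. Sostdc1, a secreted antagonist picked out after its values were seen, fell in ACI (-1.26, adjusted p = 0.000699) and also in COP (-1.99, adjusted p = 4.87e-06) and rose in BN (1.09, adjusted p = 0.00422), and both differences in response from BN were called (-2.35, adjusted p = 0.000339, and -3.08, adjusted p = 3.96e-05).

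Of 9 tested genes of the destruction complex and its regulators, 1 rose and 1 fell in ACI and in COP, and 3 fell in BN, with 2 rising in ACI under median centring, and none rising and 2 falling in ACI and COP under quantile normalization. Csnk1d, a casein kinase, fell in each strain (-0.78, -0.53 and -0.63), Tnks2, a tankyrase that destabilises Axin, rose in ACI (0.35, adjusted p = 0.0177) and also in COP (0.32, adjusted p = 0.032), Frat2, a protein that binds the kinase Gsk3, fell in BN (-1.06, adjusted p = 0.0139), and Gsk3b was called in no strain. Among 13 nuclear partners of beta-catenin none rose (1 in ACI under median centring), and 5 fell in ACI, 4 in COP and 4 in BN. The corepressor Tle3 fell most (-2.27, -1.43 and -1.41; adjusted p = 7.21e-08, 5.01e-05 and 9.74e-05), followed by Ctbp2 (-1.17, -1.17 and -0.68), Tle1 (-0.53, -0.46 and -0.34) and Cby1, an inhibitor of beta-catenin, which fell in ACI (-0.39) and COP (-0.70) only. Of 8 planar cell polarity genes, 1 rose and 4 fell in ACI and COP, and 1 rose and 5 fell in BN (3 fell in BN under either other scaling, and 2 rose in ACI under median centring): Daam1 (-1.18, -0.95 and -0.42), Prickle2 (-1.42, -1.01 and -1.68) and Vangl2 (-1.68, -1.24 and -1.12) fell in each strain, while Prickle1 rose (0.69, 0.65 and 0.61).

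Among 8 genes reported elsewhere as targets of beta-catenin, 4 rose and none fell in ACI, 3 rose and 1 fell in COP, and 3 rose and none fell in BN (5, 4 and 3 rose under median centring), whereas Axin2 and Znrf3, also reported targets, fell. The members that rose were Myc, a growth-promoting transcription factor (2.01, 2.43 and 2.66; adjusted p = 5.46e-07, 4.82e-08 and 2.6e-08), Cd44, a hyaluronan receptor (1.65, 1.70 and 1.30), Id2, an inhibitor of helix-loop-helix factors (called in ACI and BN, 0.63 and 1.00), and Birc5, a protein of dividing cells (called in ACI and COP, 1.20 and 1.03). Ccnd1, which encodes cyclin D1, was lower in COP (-0.56, adjusted p = 0.0103) and gave 0.13 in ACI and 0.08 in BN. These genes are known to respond to many other signals as well. Apart from Axin2 and Znrf3, the Wnt genes chosen by name were not sorted by whether they are reported targets.

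**Figure D5:**
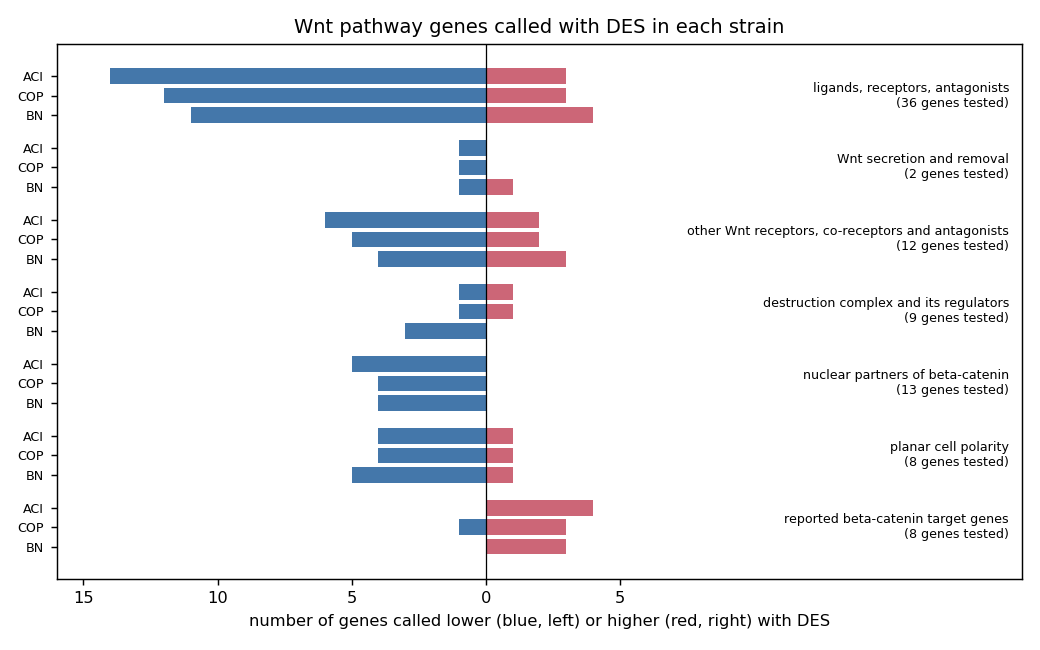
Number of genes called higher (right) and lower (left) with DES in each strain, for the 36 tested Wnt genes and the 6 lists of other pathway genes, by limma at an adjusted p under 0.05. Only the list of reported beta-catenin targets had more genes called higher than lower in every strain (4 and 0 in ACI, 3 and 1 in COP, 3 and 0 in BN). That list leaves out Axin2 and Znrf3, also reported targets, which are counted among the 36 Wnt genes and fell in every strain. The rest of the 36 were not sorted by whether they are targets.

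The arrays measured whole tissue, in which fewer cells of a type and less RNA per cell cannot be told apart. Hormone and lineage genes of the anterior lobe had a summed signal of 104100 to 238000 over the 21 arrays, and 0 of 9 rose and 6 fell in ACI, 2 rose and 6 fell in COP, and 3 rose and 3 fell in BN (0 rising in any strain under quantile normalization, and 1 in ACI under median centring). Of the neural and intermediate lobe markers 4 were tested, of which Pcsk2 rose in each strain and Oxt fell in COP. Lhx2 and Nkx2-1 had group medians under 67 in every group. Avp, Oxt and Rax did so except in COP controls, and Oacyl except in BN rats on DES. The summed signal of the 7 markers on the array was 829 to 1106 in ACI controls and 1520 to 1726 after DES. In COP it was 1118 to 1771 and 1120 to 1751, and in BN 935 to 1138 and 1940 to 3490. Markers of several cell types moved with the Wnt genes. Of 6 tested markers of folliculostellate and stem cells, 5 fell in ACI and in COP and 4 in BN, and their summed signal went from 11510 to 13810 in controls to 1286 to 2004 after DES in ACI, from 12110 to 12710 to 2871 to 3356 in COP, and from 14150 to 15630 to 5458 to 6031 in BN. None of the 6 was near 0 in treated rats, their group medians being above 67. All 5 gonadotroph markers fell in ACI and COP and 4 in BN, with summed signals of 22740 to 35150 in controls of all strains and 785 to 2677 after DES. Of 8 fibroblast and pericyte markers 3 fell and 2 rose in ACI, 4 fell and 2 rose in COP, and 2 fell and 1 rose in BN. Their summed signal was 8700 to 11310 in ACI controls and 2655 to 3194 after DES. In COP it was 9661 to 10880 and 1751 to 2721, and in BN 4314 to 6147 and 1850 to 5224, where the groups overlapped. Of 8 leukocyte and macrophage markers 7 rose in ACI and 8 in COP, where the summed signal went from 4342 to 6047 in controls to 14640 to 21130 after DES. In BN 4 rose and 1 fell, and the summed signals of 8804 to 10390 and 8943 to 15100 overlapped. The part of these cell types in the falls of Frizzled receptors, Znrf3, Lgr4, Axin2, Apc and the TCF/LEF factors and in the rises of Wnt4 and Wnt10a was not tested.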

How the data were processed

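RNA of the anterior pituitary was measured on 21 Affymetrix arrays. The values are the intensities deposited by the authors, linear signals that they scaled to a common trimmed mean; the summarization software is not given in the sources used here. From the 31099 probe sets, 57 controls were removed and 21858 with 3 or more arrays above that array's 40th percentile were tested. Symbols came from the platform annotation (20826 probe sets with 1 symbol, 436 with several, 9780 with none), and all 48 member genes matched the GRCr8 RefSeq table by gene ID with no symbol changed.

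Group means of log2(signal + 16) were fitted with limma 3.58.1 (R 4.3.3; lmFit, eBayes with a variance trend) over all 6 groups, with a median of 21.6 degrees of freedom and Benjamini-Hochberg adjustment over all tested probe sets within each of the 12 comparisons (DES in 3 strains, and strain differences in controls, in treated rats and in the response). Calls were at an adjusted p under 0.05. The number of arrays limits the precision. The fit was tested on simulated data.

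Array values were given for genes called the same way in at least 2 strains with a mean absolute log2 change of at least 1, at most 12, for Ctnnb1, Axin2 and Lef1, and for the up to 3 largest called strain differences of each kind. In other pathway lists up to 4 genes with the smallest adjusted p were named. Other genes were named after their values were seen. Members and lists were chosen with earlier results of these data known. Alternatives were other filters, added constants, scalings, no variance trend, blocks on replicate numbers, subsets of arrays and leaving out each array. The highest share of equal values between any 2 arrays was 0.254%; each array was counted as 1 sample.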

Additional observations from a re-analysis of the deposited data

Results flagged for a closer look

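The response to DES differed between ACI and BN rats for 2 genes by the interaction test in limma. The Fzd4 response was lower in ACI than in BN by 1.49 on the log2 scale (-1.486, adjusted p = 0.00657), and in each of the 21 fits that left out 1 array it was still called, but not on the arrays numbered 3 and 4 alone (-1.09, adjusted p = 0.414). The Wnt10a response was larger in ACI than in BN by 0.664 (adjusted p = 0.0225), and the call was lost without ACI control 2 or BN control 2 and on the arrays numbered 3 and 4 alone (0.287, adjusted p = 0.585). Among the genes given array by array, Dixon's test over 36 sets of 4 DES arrays (12 genes in 3 strains) found no array apart from its group on the log2(signal + 16) scale. On the linear signals it found 1, the ACI DES array with a Fzd2 signal of 57.1, whose gap to the next array was 0.839 of the range of the group; about 1 set in 20 does so by chance.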

How the results depend on the processing

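The DES calls of Wnt4, Wnt10a, Znrf3 and Fzd6 were made in every strain under every alternative tried. Leaving out 1 array at a time gave 17 to 20 member probe sets called in ACI (19 as reported), 14 to 18 in COP (17) and 15 to 20 in BN (16). For strain differences the ranges were 0 to 2 (ACI against BN), 0 to 0 (ACI against COP) and 0 to 1 (COP against BN) in controls, 7 to 11, 1 to 6 and 4 to 7 in treated rats, and 1 to 3, 0 to 1 and 0 to 2 in the response. Treated ACI against COP fell to 1 of the reported 6 without ACI DES 2 or COP DES 4, and to 3 without ACI DES 3, ACI DES 4, COP DES 1, COP DES 3 or BN control 1.

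In controls, ACI against BN gave 1 with no filter and 1 with the 60th percentile filter, and COP against BN gave 0 with no filter, median centring or quantile normalization and 2 without a variance trend. In treated rats, ACI against BN gave 6 with the 60th percentile filter and 4 with numbers 3 and 4 alone, and ACI against COP gave 2 with no filter, 1 with the 60th percentile filter, 1 with either other scaling and 2 within each set of numbers. In the response, ACI against BN gave 1 with the 60th percentile filter and 5 with numbers 1 and 2 alone. ACI against COP gave 1 with the 60th percentile filter, 64 added, median centring, no variance trend and either block. COP against BN gave 1 with the 60th percentile filter, 64 added, median centring and numbers 1 and 2 alone.

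Arrays of the same replicate number deviated from their group means together in part: the correlation had a median of 0.11 against -0.09 for other numbers, and numbers 1 and 2 or 3 and 4 taken as sets gave 0.11 against -0.12. It was over 0.1 in 32 of 48 same-numbered pairs (range -0.05 to 0.32) and not in all, 13 of 21 arrays were closest to their own number, and the labels name no shared animal or day, so that the block was not used for the values reported. With the replicate block, 20 member probe sets were called in ACI, 17 in COP and 18 in BN, 1 differed in response between ACI and COP and 1 between COP and BN, and with number sets as a block 2 did so between COP and BN. Numbers 3 and 4 alone, with 1 control per strain and the spread pooled over groups, gave 14, 13 and 7 calls, and there Dkk3 in BN (0.67, adjusted p = 0.112), Lef1 in ACI (-1.10, adjusted p = 0.0817) and BN (-0.68, adjusted p = 0.309), Fzd8 in COP (-0.40, adjusted p = 0.367) and BN (-0.86, adjusted p = 0.059), Axin2 in ACI (-0.83, adjusted p = 0.116) and BN (-0.75, adjusted p = 0.174), Lgr4 in ACI (-0.72, adjusted p = 0.152) and BN (-0.68, adjusted p = 0.197), Fzd4 in ACI (-1.19, adjusted p = 0.12), the differences in response of Fzd4 (-1.09, adjusted p = 0.414) and Wnt10a (0.29, adjusted p = 0.585), and Znrf3 between treated COP and BN (-0.83, adjusted p = 0.128) were not called. Nor were Wnt9a in any strain (adjusted p = 0.0941, 0.291 and 0.0616), Tcf7l2 in COP and BN (adjusted p = 0.0577 and 0.109), Tcf7l1 in ACI (adjusted p = 0.133), Axin1 in ACI and COP (adjusted p = 0.264 and 0.105), Wnt1 and Lrp6 in BN (adjusted p = 0.207 and 0.0535), Wnt2b and Tcf7 in COP (adjusted p = 0.402 and 0.384), both control differences of Fzd8, that of Fzd4, and the treated differences of Lef1 and Fzd4 from ACI to COP and of Lef1, Fzd6 and Fzd8 from ACI to BN. Those fits hold fewer arrays; the cause was not tested further.

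Values that were not called as reported changed sign. Ctnnb1 in ACI was 0.17 with median centring and 0.049 with numbers 1 and 2 alone, and -0.46 and called with numbers 3 and 4 alone (adjusted p = 0.0356) (-0.298 to 0.267 without 1 array), in COP -0.44 with quantile normalization, -0.027 with number sets as a block and -0.057 with numbers 3 and 4 alone (-0.017 to 0.187), and in BN -0.59, -0.034 with the replicate block, -0.077 and -0.25 under the same (-0.122 to 0.248). Lef1 in COP was 0.074 with median centring, 0.039 with quantile normalization and 0.38 with numbers 3 and 4 alone (-0.168 to 0.123 without 1 array). With numbers 3 and 4 alone Dkk3 in COP was -0.24 and Fzd2 in COP 0.038.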
